A study of Homo sapiens with 9 samples.

Results

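Transcripts of the unfolded protein response and of the chaperones of the endoplasmic reticulum (ER) were followed in U251MG cells, an established human glioma line, on 9 arrays. The gene set has 35 listed members, taken by name, and it was chosen with earlier results of these data known. Of these, 33 had a probe set annotated with exactly 1 gene symbol, out of 11963 such genes on the array, and each gene was read from its brightest probe set. DNAJB11 was not named in the probe annotation and PDIA5 shared its probe set with another gene, so neither was analysed. The first group received Oligofectamine, a lipid transfection reagent, with an siRNA against WT1, the second Oligofectamine with a scrambled, non-targeting siRNA, and the third Oligofectamine alone. Each group had 3 cultures, numbered 1 to 3, and both siRNAs were used at 100 nM. All cells, the siRNA-free ones included, had therefore been exposed to the reagent. Values are log2 levels made with robust multi-array averaging (RMA), and groups were compared within replicate numbers, with the number as a fixed block in limma and p-values adjusted over all 22215 probe sets tested. A member was called changed at an adjusted p under 0.05. The samples are called biological triplicates, but the cells were plated as wells, so the p-values measure only the spread between these wells after the block, which may be technical.

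The ER folds secreted and membrane proteins with chaperones of the heat shock family, lectin chaperones that hold sugar-bearing proteins, and enzymes that form disulfide bonds. When unfolded protein builds up, the sensors IRE1 (gene ERN1), PERK (EIF2AK3) and ATF6 act on the nucleus. IRE1 splices the XBP1 transcript, PERK slows translation while favouring ATF4, and cleaved ATF6 enters the nucleus. XBP1 and ATF6 raise chaperone and degradation genes, and ATF4 raises DDIT3 (CHOP), TRIB3 and genes of amino acid synthesis. The arrays report transcript levels. Splicing, cleavage and phosphorylation were not analysed here.

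The control regions of a few members are shown for the elements through which these factors are known to act. Promoter windows of 300 bases, from 250 before to 50 after the start site, came from RefSeq (GRCh38.p14), which held 34 of the 35 members. Capitals mark matches, on either strand, to CCAAT followed after 9 bases by CCACG (the ER stress response element), ATTGG followed after 1 base by CCACG (its second form), TGACGTGG (the unfolded protein response element), TGATGNAA (the core of the C/EBP-ATF response element) or GCGTGGGNG (a site shared by WT1 and EGR factors). HSPA5 is shown as the response's best known target, HYOU1 and EDEM1 as members that changed, and HERPUD1 and ASNS as carriers of the ATF4-type core. The HSPA5 window lies on the minus strand at chr9:125241294-125241593, HYOU1 on the minus strand at chr11:119057156-119057455 and HERPUD1 on the plus strand at chr16:56931892-56932191. The ASNS window lies on the minus strand at chr7:97872359-97872658 and that of EDEM1 on the plus strand at chr3:5187457-5187756.
HSPA5: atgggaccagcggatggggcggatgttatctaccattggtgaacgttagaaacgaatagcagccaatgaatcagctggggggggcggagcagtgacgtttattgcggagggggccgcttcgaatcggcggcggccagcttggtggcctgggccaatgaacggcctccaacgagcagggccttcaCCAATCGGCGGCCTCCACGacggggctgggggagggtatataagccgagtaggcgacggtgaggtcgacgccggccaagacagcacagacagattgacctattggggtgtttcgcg
HYOU1: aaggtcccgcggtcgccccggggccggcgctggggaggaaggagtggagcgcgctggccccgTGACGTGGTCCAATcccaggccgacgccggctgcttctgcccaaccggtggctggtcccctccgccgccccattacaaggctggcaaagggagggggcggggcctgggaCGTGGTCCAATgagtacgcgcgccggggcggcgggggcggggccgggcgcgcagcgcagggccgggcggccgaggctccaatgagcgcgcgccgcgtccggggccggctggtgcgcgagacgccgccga
HERPUD1: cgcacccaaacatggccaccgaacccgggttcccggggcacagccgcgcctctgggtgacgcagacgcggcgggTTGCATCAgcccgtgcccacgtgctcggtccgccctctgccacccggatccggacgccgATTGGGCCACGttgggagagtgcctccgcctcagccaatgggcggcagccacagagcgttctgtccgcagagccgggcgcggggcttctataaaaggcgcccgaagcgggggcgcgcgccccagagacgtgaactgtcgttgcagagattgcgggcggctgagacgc
ASNS: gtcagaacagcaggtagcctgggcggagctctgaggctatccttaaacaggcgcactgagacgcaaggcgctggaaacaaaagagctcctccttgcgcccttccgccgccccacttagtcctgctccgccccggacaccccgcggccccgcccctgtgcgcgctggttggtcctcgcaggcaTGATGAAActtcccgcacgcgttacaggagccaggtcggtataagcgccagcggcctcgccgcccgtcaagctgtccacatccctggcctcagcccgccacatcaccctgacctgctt
EDEM1: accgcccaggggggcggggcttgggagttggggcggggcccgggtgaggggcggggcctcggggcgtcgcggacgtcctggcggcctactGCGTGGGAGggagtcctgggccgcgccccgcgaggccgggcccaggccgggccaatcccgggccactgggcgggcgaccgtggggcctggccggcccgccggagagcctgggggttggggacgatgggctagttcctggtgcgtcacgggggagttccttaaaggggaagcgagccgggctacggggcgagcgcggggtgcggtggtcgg

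HSPA5 held 1 exact match to the ER stress response element, whose first base lay 66 bases before the start site. HYOU1 held 2 elements of the second form, and the distal of them overlapped its unfolded protein response element. HERPUD1 held 1 element of the second form and, on the opposite strand, 1 ATF4-type core. ASNS held 1 such core 68 bases before the start, and EDEM1 held 1 match to the WT1 and EGR site 160 bases before the start. Counted by gene, in any of its windows, the first form stood in 6 of 34 members (CALR, CANX, HSP90B1, HSPA5, PDIA6 and XBP1). It stood in 0.0916% of all 27305 genes with a window. The second form stood in 3 members (HERPUD1, HYOU1 and SDF2L1) and in 0.0696% of genes. The unfolded protein response element stood in 1 member, HYOU1, and in 0.927% of genes. The ATF4-type core stood in 4 members (ASNS, ATF3, CHAC1 and HERPUD1) and in 4.46% of genes. The WT1 and EGR site stood in 2 members (CALR and EDEM1) and in 3.39% of genes. These are exact matches of letters only. Elements that depart from the letters searched were not counted, so a window can hold more elements than are given here. The members were listed as genes of this response, so their elements are a description.

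WT1, the target of the siRNA, had log2 levels of 4.76, 5.09 and 4.82 with its siRNA (numbers 1, 2 and 3), 5.59, 5.89 and 5.41 with scrambled siRNA and 6.05, 6.58 and 5.89 with reagent alone. It fell by 0.74 against scrambled siRNA (adjusted p = 0.00336) and by 1.29 against reagent (adjusted p = 0.000619) in the limma fit with the block, and its dimmer probe set did not pass (−0.18 and −0.15). Without the block limma did not call WT1 against scrambled siRNA (adjusted p = 0.672) or reagent (adjusted p = 0.394). Its levels with either siRNA lay below every array's median. The scrambled siRNA was itself lower in WT1 than reagent alone (−0.55, adjusted p = 0.0164). The glioma markers VIM (13.57 to 13.71 over the arrays), CD44 (12.85 to 13.25), SOX9 (9.59 to 10.06) and NES (8.62 to 9.74) were bright. GFAP ranged over 5.36 to 9.26 and S100B lay at 4.47 to 5.69, below every array's median of 6.45 to 6.53. Of the markers for cells a pure line should lack, 9 of 10 had a probe set, and PTPRC, CD14, EPCAM, CDH1, PECAM1 and CDH5 had a highest array of 5.83 or less, while SYT1 reached 8.34, HBB 7.42 and CD3E 6.54. In bulk RNA, fewer cells that express a gene and less of its RNA per cell cannot be told apart.

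The members differed more between replicate numbers than between groups. The number took 70.3% of their sum of squares and the group 13.7%, close to the 70.3% and 16.6% over all genes. The number outweighed the group in 29 of 33 members, and in 81.0% of all genes. Within a gene the members spread widely: the median range over the 9 arrays was 0.83 for members and 0.46 for all genes, and 13 of 33 members ranged over more than 1, against 7.29% of all genes. The members, read from their brightest probe sets, were also brighter, with a median level of 8.82 to 9.75 by array, against 6.45 to 6.53 over all probe sets. The latter include the dimmer probe sets of each gene, so the 2 medians are not like for like. The part of brightness in their spread was not tested. The widest were TRIB3 (1.97), a pseudokinase induced by ATF4 and CHOP, ASNS (1.73), DNAJB9 (1.71), a co-chaperone that represses IRE1, and XBP1 (1.64). SEC61B (0.22), a subunit of the translocon through which proteins enter the ER, was the narrowest. The 3 arrays of number 1 had the lowest mean in 26 of 33 members. PDIA3 was among the exceptions, with a mean of 11.20 in number 1, 10.37 in number 2 and 10.59 in number 3. The 3′ minus 5′ signal of the ACTB control probe sets, a sign of RNA quality, also went with the number: 0.05 to 0.09 in the arrays of number 1, 0.55 to 0.68 in number 2 and 0.26 to 0.50 in number 3. Its part in the members' levels was not tested.

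**Figure D1:**
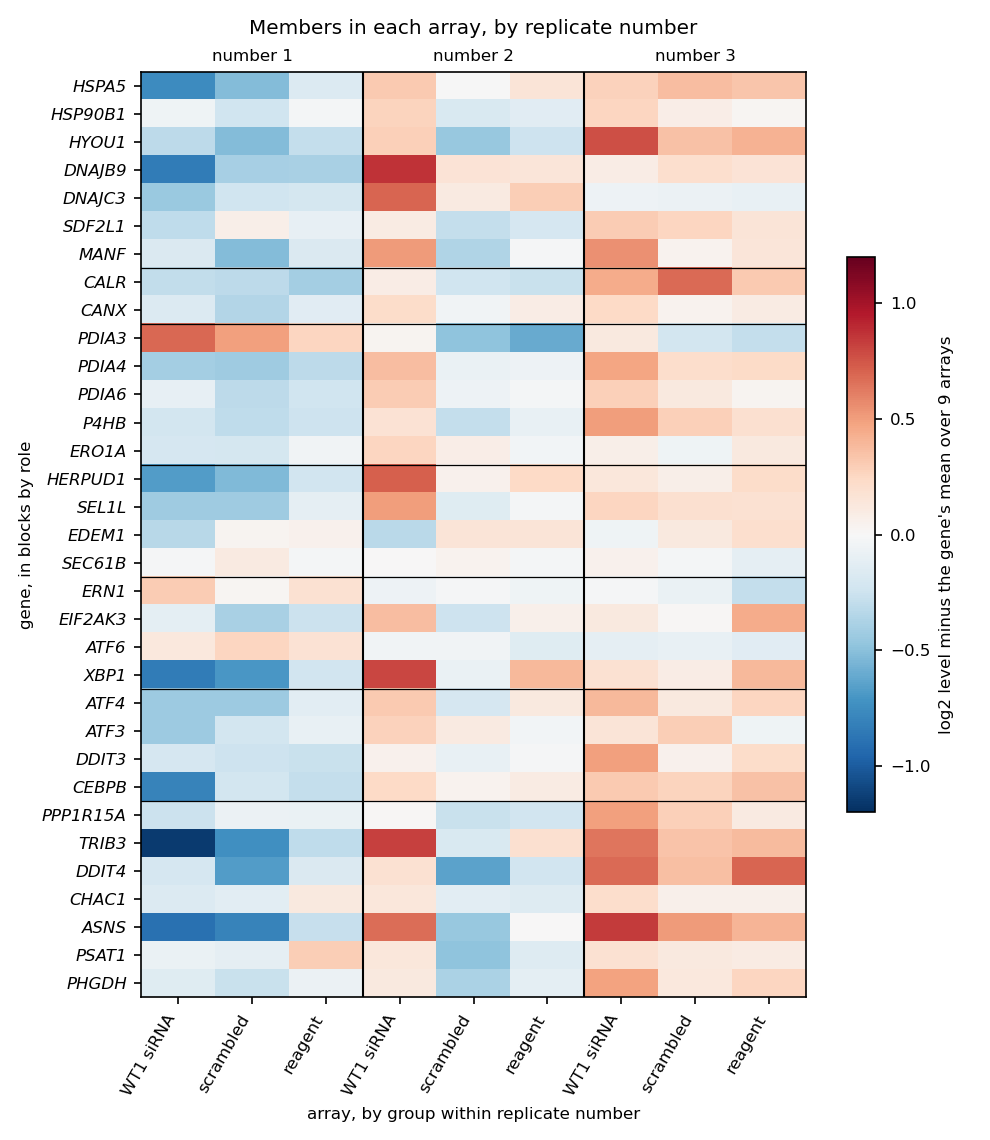
Each row is a member, in blocks by role, and each column an array, with the WT1 siRNA, scrambled siRNA and reagent arrays side by side within a replicate number. Colour gives the log2 level minus that gene's mean over the 9 arrays; number 1 is low in most rows, and the WT1 siRNA array of number 2 is the highest of its number in 30 of 33 rows.

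The first comparison set the WT1 siRNA against the scrambled siRNA, with an siRNA in both groups. MANF, HYOU1, PDIA3 and DDIT4 rose, EDEM1 fell, and 28 members did not pass. That is 5 of 33 members called, where 3.7% of all 11963 genes were called: 4 were higher, against 1.39% of all genes, and 1 was lower, against 2.32%. The median member difference was 0.21 and 27 of 33 differences lay above 0, while over all genes the median was −0.00 and 49.4% lay above 0. The lift was uneven between numbers: the median member difference was 0.00 in number 1, 0.45 in number 2 and 0.12 in number 3. In the fit without WT1 siRNA replicate 2 the median member difference was 0.04, without scrambled replicate 2 it was 0.13 and without number 2 it was 0.06. The 3′ minus 5′ signal of ACTB differed between the WT1 siRNA and scrambled siRNA arrays by 0.03, −0.12 and −0.20 in numbers 1, 2 and 3. That of GAPDH differed by 0.00, 0.02 and 0.01. The part of either in the members' differences was not tested. At an unadjusted p under 0.05 the limma fit gave 14 members, against 17.7% of all genes. The WT1 siRNA array was the higher in 3 of 3 numbers for 15 members (16.4% of all genes) and the lower in 3 of 3 for 1 (20.1%). In 0 members did every WT1 siRNA array lie above every scrambled one (3.16% of all genes). Without the block limma called 0 of 33 members (3 at an unadjusted p under 0.05) and 0.0334% of all genes.

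MANF, a small ER protein that binds HSPA5 and is released under stress, had log2 levels of 10.30, 10.98 and 11.02 with the WT1 siRNA, 9.95, 10.11 and 10.51 with scrambled siRNA and 10.30, 10.45 and 10.62 with reagent alone. The WT1 siRNA array was above the scrambled one in 3 of 3 numbers (0.35, 0.87 and 0.50), although the groups overlapped. MANF rose 1.49-fold (log2 0.57, SE 0.103, adjusted p = 0.0216 in limma). Against reagent alone it differed by 0.31 and did not pass (adjusted p = 0.198).

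HYOU1, a large chaperone that exchanges nucleotide on HSPA5, had log2 levels of 10.21, 10.81 and 11.30 with the WT1 siRNA, 10.00, 10.07 and 10.87 with scrambled siRNA and 10.24, 10.28 and 10.94 with reagent alone. It rose 1.37-fold against scrambled siRNA (log2 0.46, SE 0.103, adjusted p = 0.0462 in limma), higher in 3 of 3 numbers, with overlapping groups. The difference from reagent alone, 0.29, did not pass (adjusted p = 0.226).

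PDIA3, also called ERp57, makes disulfide bonds in proteins held by calnexin and calreticulin. Its log2 levels were 11.41, 10.75 and 10.83 with the WT1 siRNA, 11.21, 10.24 and 10.50 with scrambled siRNA and 10.97, 10.11 and 10.43 with reagent alone. The WT1 siRNA array was the highest of its number each time, and within a group number 1 was the highest. PDIA3 rose 1.27-fold against scrambled siRNA (log2 0.35, SE 0.0722, adjusted p = 0.0344 in limma) and 1.41-fold against reagent alone (log2 0.49, adjusted p = 0.0178), the only member to rise against both controls.

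DDIT4, which restrains mTORC1 under stress and is a target of ATF4 and of hypoxia, had log2 levels of 8.36, 8.74 and 9.24 with the WT1 siRNA, 7.89, 7.92 and 8.92 with scrambled siRNA and 8.38, 8.33 and 9.26 with reagent alone. It rose 1.45-fold against scrambled siRNA (log2 0.54, SE 0.0958, adjusted p = 0.0208 in limma). The scrambled siRNA arrays were the lowest of their number in 3 of 3 numbers, and the WT1 siRNA and reagent groups differed by 0.12 (adjusted p = 0.591).

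EDEM1, which pulls misfolded glycoproteins towards degradation, moved the other way. It had log2 levels of 7.88, 7.90 and 8.16 with the WT1 siRNA, 8.25, 8.37 and 8.33 with scrambled siRNA and 8.27, 8.38 and 8.42 with reagent alone. Every WT1 siRNA array lay below every array of both controls, a separation downward seen in 3.8% of all genes against scrambled siRNA and 3.19% against reagent. EDEM1 fell by 0.34 on the log2 scale against scrambled siRNA (SE 0.0687, adjusted p = 0.0326 in limma) and by 0.37 against reagent alone (adjusted p = 0.0371). More of its spread lay between groups (78.3%) than between numbers (13.7%), as in 3 other members, MANF (47.8% between groups), HSP90B1 (47.4%) and SEC61B (46.1%).

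**Figure D2:**
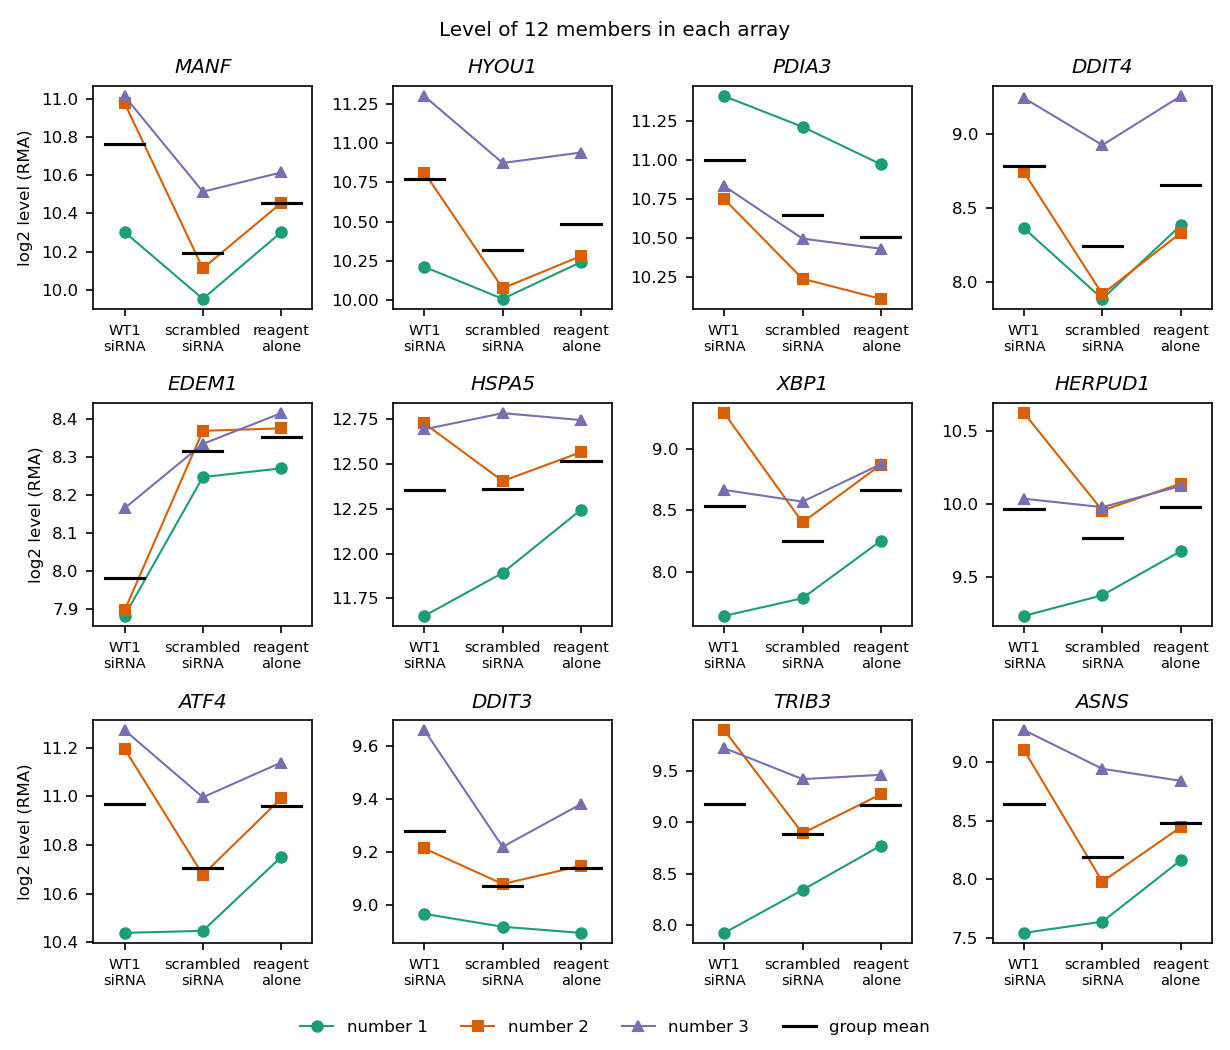
Log2 level (RMA) of 12 members in each array, by group from left to right, with the arrays of a replicate number joined by a line and the group mean as a black bar. EDEM1 is lower in the 3 WT1 siRNA arrays than in every control array, while for TRIB3, ASNS, XBP1 and HERPUD1 the line of number 2 is high with the WT1 siRNA and that of number 1 is low.

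Among the other ER chaperones the differences from scrambled siRNA were smaller. HSPA5 (BiP), the main ER chaperone, had log2 levels of 11.65, 12.73 and 12.69 with the WT1 siRNA, 11.89, 12.40 and 12.78 with scrambled siRNA and 12.24, 12.57 and 12.74 with reagent alone. The groups overlapped, and the WT1 siRNA array was below the scrambled one in numbers 1 and 3 (−0.24 and −0.09) and above it in number 2 (0.32). HSPA5 did not pass in any of the 3 comparisons (adjusted p = 0.996, 0.598 and 0.713 in limma). HSP90B1 (GRP94) differed by 0.27 from scrambled siRNA and was read from a probe set of a type that can cross-hybridise, because the brighter ones also carry the name of a second gene and were not used. Its dimmer probe set differed by 0.02, at −0.18, 0.25 and 0.00 in the numbers (adjusted p = 0.95 in limma). The co-chaperones DNAJB9 (0.05), DNAJC3 (0.13) and SDF2L1 (0.01) did not pass, and in each the WT1 siRNA array was below the scrambled one in number 1 and above it in number 2. For DNAJB9 the differences were −0.44 in number 1, 0.70 in number 2 and −0.12 in number 3.

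The lectin chaperones CALR (0.03) and CANX (0.21, adjusted p = 0.102) did not pass at their brightest probe sets. CANX has 2 further probe sets, of which the dimmest rose by 0.39 (adjusted p = 0.0211) and the other did not pass (0.26, adjusted p = 0.0928), while every WT1 siRNA array lay above every scrambled one in both. Of the disulfide enzymes, 5 of 5 measured were above scrambled siRNA in 3 of 3 numbers, a pattern seen in 16.4% of all genes. Beside PDIA3 these were PDIA6 (0.25, adjusted p = 0.0768), P4HB (0.25), PDIA4 (0.24) and ERO1A (0.10), which reoxidises the isomerases, and none of these 4 passed. In number 1, PDIA4 and ERO1A were above scrambled siRNA by only 0.01 each, and below reagent alone (−0.09 and −0.15). PDIA6 lay at 11.06, 11.47 and 11.45 with the WT1 siRNA, against 10.85, 11.10 and 11.29 with scrambled siRNA and 10.93, 11.14 and 11.20 with reagent alone. A dimmer probe set of PDIA4 differed by 0.33 (adjusted p = 0.0504).

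HERPUD1, an ER membrane protein that organises the degradation machinery, had log2 levels of 9.23, 10.62 and 10.04 with the WT1 siRNA, 9.37, 9.95 and 9.98 with scrambled siRNA and 9.68, 10.14 and 10.12 with reagent alone. Its WT1 siRNA arrays included the lowest and the highest of all 9. It did not pass against scrambled siRNA (0.19, adjusted p = 0.596). SEL1L, the partner of the ubiquitin ligase HRD1, differed by 0.24 (adjusted p = 0.436), with 0.65 in number 2 and under 0.10 in the others. SEC61B did not pass (−0.03), although every WT1 siRNA array was above every reagent array, which held for 2.68% of all genes in that comparison.

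The sensors did not pass. EIF2AK3 (PERK) differed from scrambled siRNA by 0.33 (adjusted p = 0.172), ERN1 (IRE1) by 0.10 and ATF6 by −0.05. ATF6 was the member whose spread lay most between numbers (90.1%), with number 1 highest. XBP1, the factor made when IRE1 splices its transcript, had log2 levels of 7.64, 9.29 and 8.67 with the WT1 siRNA, 7.79, 8.40 and 8.57 with scrambled siRNA and 8.25, 8.87 and 8.87 with reagent alone. The WT1 siRNA group spanned 1.64, wider than either control, and its difference from scrambled siRNA (0.28, adjusted p = 0.483) was −0.14, 0.88 and 0.09 in the 3 numbers.

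In the PERK arm the factor ATF4 had log2 levels of 10.44, 11.20 and 11.27 with the WT1 siRNA, 10.45, 10.68 and 11.00 with scrambled siRNA and 10.75, 10.99 and 11.14 with reagent alone. It differed by 0.26 from scrambled siRNA and by 0.01 from reagent, and passed in neither comparison (adjusted p = 0.23 and 0.983). DDIT3 (CHOP), which promotes cell death under lasting stress, had 8.97, 9.21 and 9.66 with the WT1 siRNA, 8.92, 9.08 and 9.22 with scrambled siRNA and 8.90, 9.15 and 9.38 with reagent alone. Its WT1 siRNA array was the highest of its number in 3 of 3 numbers, and it did not pass (0.21, adjusted p = 0.212, and 0.14, adjusted p = 0.444). ATF3 (−0.06) and CEBPB (−0.11) did not pass, and ATF3 lay below the array medians throughout, at 5.52 to 6.26.

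All 7 effectors and targets of the PERK arm had a positive difference from scrambled siRNA, of which DDIT4 passed. ASNS, asparagine synthetase, had log2 levels of 7.54, 9.10 and 9.28 with the WT1 siRNA, 7.64, 7.98 and 8.95 with scrambled siRNA and 8.16, 8.45 and 8.84 with reagent alone. Its difference from scrambled siRNA was large but uneven (0.45, SE 0.22, adjusted p = 0.352), at −0.10, 1.12 and 0.33 in the numbers. TRIB3 (0.30) went the same way, at −0.42, 1.00 and 0.30. The serine synthesis genes PHGDH (0.32, adjusted p = 0.0618) and PSAT1 (0.24), the glutathione-degrading enzyme gene CHAC1 (0.13) and PPP1R15A (0.10), whose product reverses the block on translation, did not pass. PHGDH was higher with the WT1 siRNA than with scrambled siRNA in 3 of 3 numbers (0.12, 0.49 and 0.35).

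**Figure D3:**
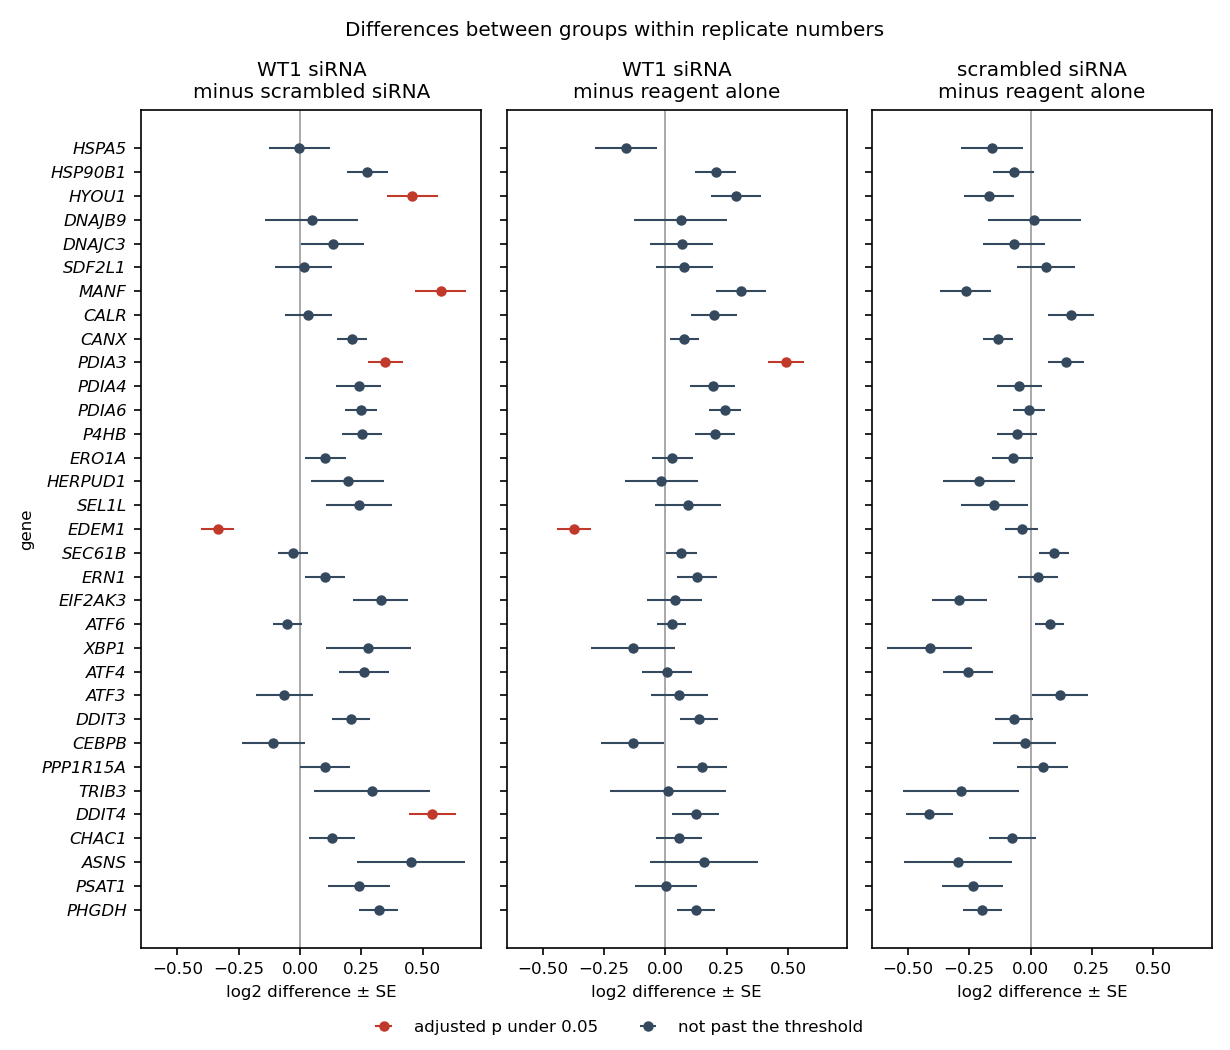
Log2 difference of each member in the 3 comparisons, from the limma fit with the replicate block, with its standard error as a bar (n = 3 per group). Red points passed at an adjusted p under 0.05: MANF, HYOU1, PDIA3, DDIT4 and EDEM1 against scrambled siRNA, PDIA3 and EDEM1 against reagent alone, and 0 between the controls.

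Which of the 5 passed against scrambled siRNA depended on the arrays fitted, while the sizes of the differences moved by less than 1.5 times. With an array or a number left out, MANF differed by 0.43 to 0.71, HYOU1 by 0.32 to 0.60, PDIA3 by 0.27 to 0.42, DDIT4 by 0.40 to 0.65 and EDEM1 by −0.42 to −0.27. None of the 5 passed without WT1 siRNA replicate 2 (adjusted p = 0.0545 to 0.167), scrambled replicate 1 (0.06 to 0.135) or scrambled replicate 2 (0.142 to 0.249), or without the 3 arrays of number 2 (0.205 to 0.38). Over all probe sets these fits called 208, 224, 88 and 2 in turn, against 726 with all arrays. Of the 5, only DDIT4 passed without scrambled replicate 3, only EDEM1 and DDIT4 without WT1 siRNA replicate 3 or without number 3, only MANF and DDIT4 without reagent replicate 2, and only HYOU1 and MANF without number 1. Leaving out WT1 siRNA replicate 1 ended the call of EDEM1 (adjusted p = 0.0797), while 9 members then rose, ATF4 (0.41, adjusted p = 0.0294) and ASNS (0.78, adjusted p = 0.0418) among them. Without reagent replicate 1 PDIA3 was at 0.0504 and without reagent replicate 3 HYOU1 was at 0.0553. Leaving out a reagent array left all 5 differences from scrambled siRNA as they were, since it enters only the estimate of the spread. The direction of each of the 5 was the same under all 20 alternatives, but many of these could not change it. The block settings, the groups fitted, the floor, the trend, the mean over probe sets and the reagent arrays left the differences as they were. Each of the 5 also had the same sign in every number, so leaving out a number could not reverse it.

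The second comparison set the WT1 siRNA against reagent alone. PDIA3 rose and EDEM1 fell, as given above, and the other 31 members did not pass. These 2 of 33 stand beside 1.4% of all genes called, with 1 higher, against 0.376% of all genes, and 1 lower, against 1.02%. At an unadjusted p under 0.05 limma gave 7 members, against 15.9% of all genes. The WT1 siRNA array was higher in 3 of 3 numbers for 7 members (17% of all genes) and lower for 1 (17.4%). The median member difference was 0.08, with 28 of 33 above 0, and 0.01 with 53.9% above 0 over all genes. It was −0.04 without WT1 siRNA replicate 2 and −0.03 without number 2, and 0.19, 0.18 and 0.22 without WT1 siRNA replicate 1, reagent replicate 1 and number 1. The 3 numbers disagreed in direction: the median was −0.15 in number 1, with 24 of 33 members below reagent, 0.30 in number 2, with 31 above, and 0.15 in number 3, with 24 above. A difference below 0 in number 1 and above 0 in number 2 occurred in 23 of 33 members, and in 22.7% of all genes. It was largest in TRIB3 (−0.85 in number 1, 0.62 in number 2 and 0.26 in number 3), ASNS (−0.62, 0.66 and 0.43), DNAJB9 (−0.45, 0.72 and −0.08), XBP1 (−0.61, 0.42 and −0.21) and HERPUD1 (−0.44, 0.48 and −0.09). All 7 effectors and targets of the PERK arm were below reagent in number 1 and above it in number 2. Within number 2 the WT1 siRNA array was the highest of the 3 groups in 30 of 33 members, and in 33.3% of all genes. Within number 1 it was the lowest in 15 of 33, and in 40.3% of all genes. With 1 array for each group and number, this difference between numbers could not be tested. The 3′ minus 5′ signal of ACTB differed between the WT1 siRNA and reagent arrays by −0.01, −0.06 and −0.24 in numbers 1, 2 and 3, and that of GAPDH by 0.02, 0.03 and 0.01. Its part here was not tested either.

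**Figure D4:**
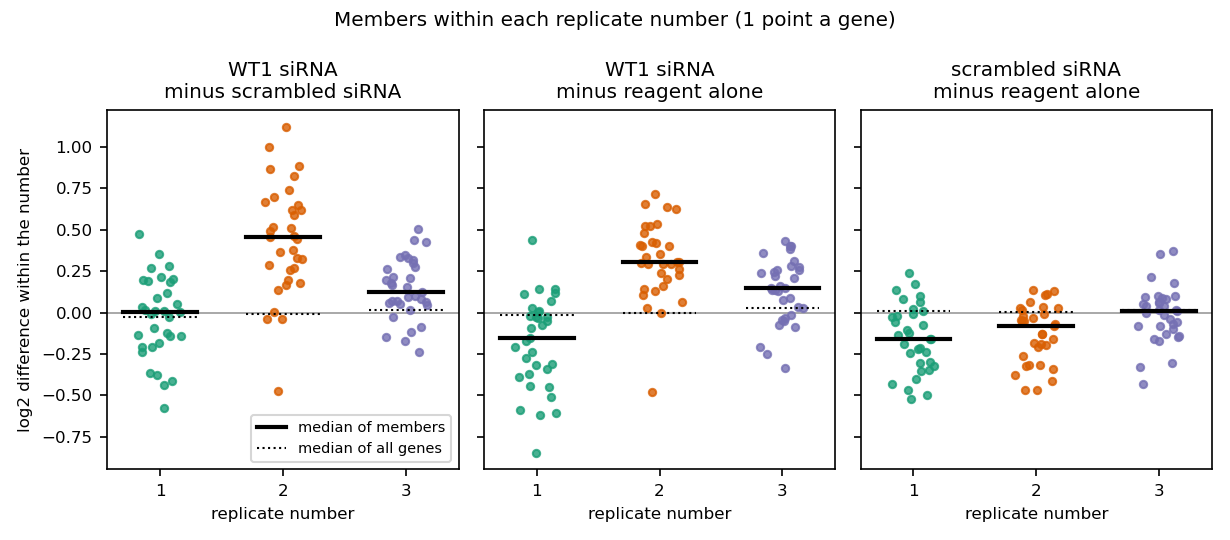
Log2 difference of each member (points, 33 per column) within replicate numbers 1, 2 and 3, for the 3 comparisons, with the median of the members (solid bar) and of all genes (dotted bar). Against reagent alone the members' median is −0.15 in number 1, 0.30 in number 2 and 0.15 in number 3.

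Against reagent alone, with an array or a number left out, PDIA3 differed by 0.42 to 0.54 and EDEM1 by −0.44 to −0.31. Both calls ended without WT1 siRNA replicate 2 (adjusted p = 0.0856 to 0.157), reagent replicate 1 (0.0679 to 0.118), reagent replicate 2 (0.138 to 0.207), number 2 (0.277 to 0.384) or number 3 (0.0661 to 0.0667). Over all probe sets 44 were called without WT1 siRNA replicate 2 and 92 without reagent replicate 1, against 277 with all arrays. EDEM1 alone did not pass without WT1 siRNA replicate 1 (0.0656), reagent replicate 3 (0.108), number 1 (0.113) or any of the scrambled siRNA arrays (0.0554 to 0.0705), the last with its difference still at −0.37. Without WT1 siRNA replicate 1, HYOU1 (0.43, adjusted p = 0.0414) and MANF (0.44, adjusted p = 0.0491) passed beside PDIA3. Without the block limma called 0 members (1 at an unadjusted p under 0.05), and 0 of 11963 genes.

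The third comparison set the scrambled siRNA against reagent alone and so shares its arrays with the other comparisons. No member passed (0 of 33 in limma, 6 at an unadjusted p under 0.05), where 1.21% of all genes were called, 0.644% higher and 0.568% lower, and 13.1% had an unadjusted p under 0.05. Without the block limma called 0 members and 0.00836% of all genes. In 0 members did the groups separate, against 2.97% of all genes upward and 2.72% downward. The median member difference was −0.07, with 24 of 33 below 0, while over all genes it was 0.01 with 55.7% above 0. It was −0.00 without reagent replicate 1, −0.15 without reagent replicate 2, −0.12 without scrambled replicate 1, and −0.11 without reagent replicate 3 or number 3. The members were lower with scrambled siRNA in numbers 1 and 2 (medians −0.16 and −0.08) and not in number 3 (0.01). DDIT4 (−0.41, adjusted p = 0.0855; −0.50, −0.41 and −0.33 in the numbers) and XBP1 (−0.41, adjusted p = 0.383; −0.47, −0.47 and −0.30) were lower in 3 of 3 numbers, as were ATF4 (−0.25) and MANF (−0.26). In all, 12 of 33 members were lower in 3 of 3 numbers, against 17.4% of all genes, and 4 were higher in 3 of 3, against 21.7%. Of the 5 members that changed against scrambled siRNA, MANF, HYOU1 and DDIT4 had their lowest mean with scrambled siRNA, PDIA3 had its lowest with reagent alone and EDEM1 with the WT1 siRNA.

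The other probe sets gave a check. The 10 members with more than 1 had 16 dimmer ones, and all 16 had the sign of the brightest against scrambled siRNA, 15 against reagent and 15 between the controls. MANF, HYOU1, PDIA3, DDIT4 and EDEM1 each had a single probe set of 1 gene symbol, so their calls had no such check.

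Of 172 further pathway genes in 8 lists, 141 had a probe set, and their differences ranged from −0.23 to 0.48 against scrambled siRNA. Against scrambled siRNA 3 rose and 0 fell (2.13%, against 3.7% of all genes): CREB3L2, an ER-bound factor related to ATF6 (0.48, adjusted p = 0.0217), AARS1, alanyl-tRNA synthetase (0.35, adjusted p = 0.0242), and PSPH, the last enzyme of serine synthesis (0.48, adjusted p = 0.0445). At an unadjusted p under 0.05 there were 27 of 141, beside 17.7% of all genes. PSPH was also lower with scrambled siRNA than with reagent alone, by 0.55 (adjusted p = 0.0476 in limma). Its mean level was 9.29 with the WT1 siRNA, 8.82 with scrambled siRNA and 9.36 with reagent alone. Against reagent alone 0 of 141 passed in limma, with 23 at an unadjusted p under 0.05. The 26 measured amino acid transport and synthesis targets of ATF4 had the largest median difference from scrambled siRNA among these lists (0.18, 20 above 0, 1 called), beside 0.21 for the members. Against reagent alone the median of this list was 0.05. Further ER folding genes (24 measured, median 0.08), degradation genes (15, 0.05) and translocon genes (21, 0.01) had 0 calls in the 3 comparisons. The aminoacyl-tRNA synthetases (16, 0.00), the eIF2 kinases and exchange factors (10, −0.08), the further sensors and death-linked genes (16, 0.07) and the cytosolic heat shock genes (13, −0.00) had 2 calls against scrambled siRNA, the AARS1 and CREB3L2 named above.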

How the data were processed

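Labelled RNA from 9 U251MG cultures was hybridised to 1 Affymetrix array each. Per the submitters' processing notes the authors used RMA, so the deposited values are log2 levels, 1 for each probe set. Those notes name no software version. The table held 22277 probe sets. The 62 controls were left out, and of the 22215 others 19064 had 1 gene symbol, 1043 several and 2108 none. Arrays limit precision by their number.

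Groups and numbers came from the sample titles. In R 4.3.3, limma 3.58.1 (lmFit, contrasts.fit, eBayes) was fitted to all arrays with a mean per group and the replicate number as a fixed block, two-sided, with Benjamini-Hochberg adjustment over all probe sets. Deviations from group means correlated at 0.647 to 0.849 between arrays of the same number (9 pairs) and at −0.611 to −0.0311 otherwise. Centring each group on its mean pushes the latter below 0, so they are no separate evidence for the pairing. The number was the block because groups were to be compared within replicate numbers. The procedure was tested on simulated data. The members, lists, motifs and the blocked fit were chosen with earlier results of these data known. Members that were called, and HSPA5, DDIT3, ATF4, XBP1, HERPUD1 and ASNS in any case, are given array by array. Of other lists up to 4 called genes are named. Alternatives changed the block, the groups fitted, the scaling, a filter on dim probe sets, the spread model, the probe set and the arrays. Figures used matplotlib 3.10.9.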

Additional observations from a re-analysis of the deposited data

How the results depend on the processing

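The count of members called depended on the block and on single arrays. Against scrambled siRNA it was 5 as reported, 0 with no replicate block, 2 with the replicate block as a random effect, 2 with only the groups of the comparison fitted and 10 with an intensity trend and robust estimation. Over all probe sets these 4 settings called 4, 356, 390 and 1091, against 726 as reported. Leaving out arrays or numbers gave 0 to 9 members and 2 to 706 of all probe sets. Against reagent alone it was 2 as reported, and 0, 1 and 0 under the first 3 of these settings, with 0 to 3 when arrays or numbers were left out. Over all probe sets those 3 settings called 0, 118 and 3, against 277 as reported. Between the controls it was 0 as reported, 2 with only those groups fitted (DDIT4 and XBP1, both lower) and 1 with the trend (DDIT4), with 0 to 1 when arrays or numbers were left out. Centring each array on its median, quantile normalisation, a floor of 5 on the mean level and the mean over a gene's probe sets kept each count within 1.5 times. The median member difference was, over all 20 alternatives, 0.04 to 0.30 against scrambled siRNA, −0.04 to 0.22 against reagent and −0.15 to −0.00 between the controls. Over all probe sets the blocked fit called 726, 277 and 242, and the fit with no replicate block 4, 0 and 1. The cause of these differences was not tested, and some fits had fewer arrays.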
